A study of Homo sapiens with 6 samples.

Results

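The transcripts described here are those of 40 human genes of DNA replication and S phase, measured in LX-2 cells, an established hepatic stellate cell line. Stellate cells lay down the collagen of scarred liver. The genes were chosen by symbol, as origin licensing, replication fork, nucleotide supply and E2F-driven S phase genes, and all 40 are among the 22701 genes of the expression table. Polyadenylated RNA was sequenced from 2 groups. The cells of 3 libraries received TGF-β together with LIG (ligustilide, a plant phthalide) at 20 µM, and those of the other 3 received TGF-β alone. All 6 libraries thus carry TGF-β, the cytokine that turns stellate cells into matrix-producing cells, at a labelled 5 µg/mL, a unit that was not checked, and cells without it are not analysed here. The comparison asks what LIG changes on top of TGF-β. The labels name no treatment time and do not call the replicates separate cultures, so each p-value reflects only how far these libraries spread, which may be technical. LX-2 is an immortalised line that divides in culture, which sets it apart from resting stellate cells of the liver.

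Before each S phase, CDC6 and CDT1 load the MCM2-7 helicase onto origins in an inactive form. In S phase, CDC45 and the GINS proteins activate it, primase and the polymerases copy the DNA, and the PCNA clamp, loaded by replication factor C, holds the polymerases on the template. Cyclin E and its kinase release E2F factors from the retinoblastoma protein. E2F then drives most of these genes, so that their transcripts are usual markers of cycling cells.

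Since E2F links many of these genes, the reference sequence at their starts was searched for its binding site. The 4 forms of the E2F site searched were TTTCCCGC, TTTGGCGC, TTTCGCGC and TTTGCCGC, on both strands, in windows from 250 bases before to 50 bases after each start (RefSeq, GRCh38.p14). Windows were found for 37 of the 40 genes. A match lay in 22 of the 37 (59.5%), against 6.99% of the 8740 tested genes with a window and 3.99% of all 27305 genes. The genes were chosen in part as E2F-driven, so this share is a description. MCM4, MCM5 and CCNE2 had no window. The 5 windows with more than 1 match are shown, 5′ to 3′ on the gene's strand, with the matches in capitals. They are those of MCM2 (chr3:127598161-127598460, plus strand), MCM3 (chr6:52284693-52284992, minus strand), MCM6 (chr2:135876394-135876693, minus strand), MCM7 (chr7:100101348-100101647, minus strand) and E2F1 itself (chr20:33686336-33686635, minus strand).
MCM2: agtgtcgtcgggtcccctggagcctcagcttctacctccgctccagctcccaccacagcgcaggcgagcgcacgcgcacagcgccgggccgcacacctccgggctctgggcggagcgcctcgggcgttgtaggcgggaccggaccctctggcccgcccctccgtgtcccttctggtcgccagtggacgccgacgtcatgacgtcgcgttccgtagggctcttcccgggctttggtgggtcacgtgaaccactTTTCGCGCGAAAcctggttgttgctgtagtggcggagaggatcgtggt
MCM3: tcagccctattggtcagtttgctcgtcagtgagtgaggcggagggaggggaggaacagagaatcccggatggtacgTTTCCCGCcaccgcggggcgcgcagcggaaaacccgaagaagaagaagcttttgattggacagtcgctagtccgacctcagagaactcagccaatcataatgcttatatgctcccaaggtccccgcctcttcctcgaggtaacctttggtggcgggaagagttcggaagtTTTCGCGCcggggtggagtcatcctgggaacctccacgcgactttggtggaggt
MCM6: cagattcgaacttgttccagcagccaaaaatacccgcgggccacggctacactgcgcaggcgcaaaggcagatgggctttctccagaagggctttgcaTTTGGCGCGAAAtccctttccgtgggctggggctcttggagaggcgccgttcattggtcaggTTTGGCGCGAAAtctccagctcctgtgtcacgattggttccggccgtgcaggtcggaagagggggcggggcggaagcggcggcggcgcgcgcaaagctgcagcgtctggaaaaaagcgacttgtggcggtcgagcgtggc
MCM7: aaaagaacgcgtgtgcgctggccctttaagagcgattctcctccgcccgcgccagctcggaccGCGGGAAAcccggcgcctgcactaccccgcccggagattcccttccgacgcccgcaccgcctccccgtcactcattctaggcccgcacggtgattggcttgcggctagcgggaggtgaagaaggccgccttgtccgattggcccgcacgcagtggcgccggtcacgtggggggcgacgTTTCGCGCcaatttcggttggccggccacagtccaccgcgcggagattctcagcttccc
E2F1: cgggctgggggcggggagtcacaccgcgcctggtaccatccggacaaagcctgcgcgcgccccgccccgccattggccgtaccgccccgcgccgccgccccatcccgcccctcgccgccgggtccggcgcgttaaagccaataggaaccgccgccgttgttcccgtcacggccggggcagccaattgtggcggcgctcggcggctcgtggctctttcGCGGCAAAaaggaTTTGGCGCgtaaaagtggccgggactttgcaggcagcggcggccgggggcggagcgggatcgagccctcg
In MCM2 and MCM6 the capital runs of 12 bases are a match on each strand that overlap by 4 bases. MCM6 held 4 matches in 2 such runs, and the other 4 windows held 2 matches each. The tested members with a match had a median log2 change with LIG of -0.04 (n = 21), and those without had a median of -0.01 (n = 15). A match shows only that these letters lie in the window.

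The data are FPKM, fragments scaled to gene length and library total. Levels of different genes compare only as far as the lengths used match the transcripts present, which was not checked. They correspond to between 38401783 and 39260090 fragments per library. Of 15 stellate cell genes listed, 9 had a mean of at least 1 FPKM, among them VIM (1737 to 2091 FPKM over the 6 libraries), COL1A1 and ACTA2. PDGFRA, LRAT, LUM, DCN, DES and RELN were not among the 9, and DES and RELN were at or near 0. The listed stellate genes summed to between 3034 and 3446 FPKM with LIG and between 3384 and 3588 FPKM with TGF-β alone. VIM was a large part of each sum. Of the 9 tested, 2 fell, COL3A1 and SPARC (limma adjusted p = 0.0144 and 0.0435), and 0 rose, against 0.505% and 0.187% of all genes. TIMP1, with the smallest p of the 4 above 0, had a log2 change of 0.27 with groups that did not overlap (limma adjusted p = 0.563). The call of COL3A1 was lost without LIG replicate 2, TGF-β replicate 1 or TGF-β replicate 3 (adjusted p between 0.0567 and 0.0766), and that of SPARC without any library but LIG replicate 3 (between 0.153 and 0.324). Both were lost with no filter on low values (adjusted p = 0.114 and 0.155), and SPARC also with the replicate block (0.361), quantile normalization (0.0679) and robust estimation (0.0577). With quantile normalization 2 of the 9 stellate genes were still called lower, neither of them SPARC. Of the markers of other cell types, those of endothelium summed to at most 0.34 FPKM in any library, PTPRC, CD163 and EPCAM were at or near 0, and SERPINA1 (3.2 to 4.86 FPKM), CD68, KRT7 and SOX9 were the ones with a mean of at least 1 FPKM. The cholangiocyte and epithelial list summed to between 11.2 and 11.9 FPKM with LIG and between 13.6 and 13.9 FPKM with TGF-β alone. Its part in the results below was not tested. LIG replicate 3 and TGF-β replicate 2 stood apart from the other 4 libraries on the first principal component (55.1% of the variance), and results are given with and without them. Without them 6 of the 9 stellate genes were called, 5 lower and 1, TIMP1, higher (limma adjusted p = 0.00886), against 4.65% of all genes. With library quality weights 7 of the 9 were, 5 lower and 2 higher, against 17.7% of all genes.

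No replication transcript was called higher or lower with LIG. Of the 39 members tested, 0 rose or fell, against 0.692% of all 10695 genes tested, with 0.187% higher and 0.505% lower (limma, Benjamini-Hochberg adjusted p under 0.05). The test was on log2(FPKM + 1), for genes with a mean of at least 1 FPKM. At an unadjusted p under 0.05, 0 of the 39 passed, against 8.41% of all genes. The voom method of limma on whole fragments also called 0 members, against 0.72% of all genes. Log2 changes ran between -0.14 for TK1 and 0.13 for CCNE1. In mean FPKM these were differences of -9.14% and 9.73% from TGF-β alone.

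A miss of the threshold does not show equal levels, so the interval of each difference matters. The 95% interval of the log2 change lay within 1.25-fold either way (0.32 on the log2 scale) in 36 of the 39, against 68% of all genes tested. It went beyond in POLE, RFC4 and TK1. The members were also the higher in level, with a median of the mean FPKM of 20.8, against 8.9 over all genes tested. The part of level in the interval shares was not tested. POLE had the widest interval, between -0.34 and 0.36. The median log2 change of the members was -0.04, against 0.03 over all genes tested, and 27 members lay below 0 and 12 above. When values were rescaled to TPM or centred on the median, 32 lay below 0 and 7 above, and with quantile normalization 34 and 5. Of all 10695 genes tested, 4187 lay below 0 in the main fit. The count was 4997 with TPM, 5135 with median centring and 4981 with quantile normalization, so it also grew over all genes. The median absolute change was 0.05 for the members and 0.07 over all genes. No decrease was called for any member. In bulk RNA, fewer cells in S phase and less of these transcripts per cell could not be told apart in any case.

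**Figure D1:**
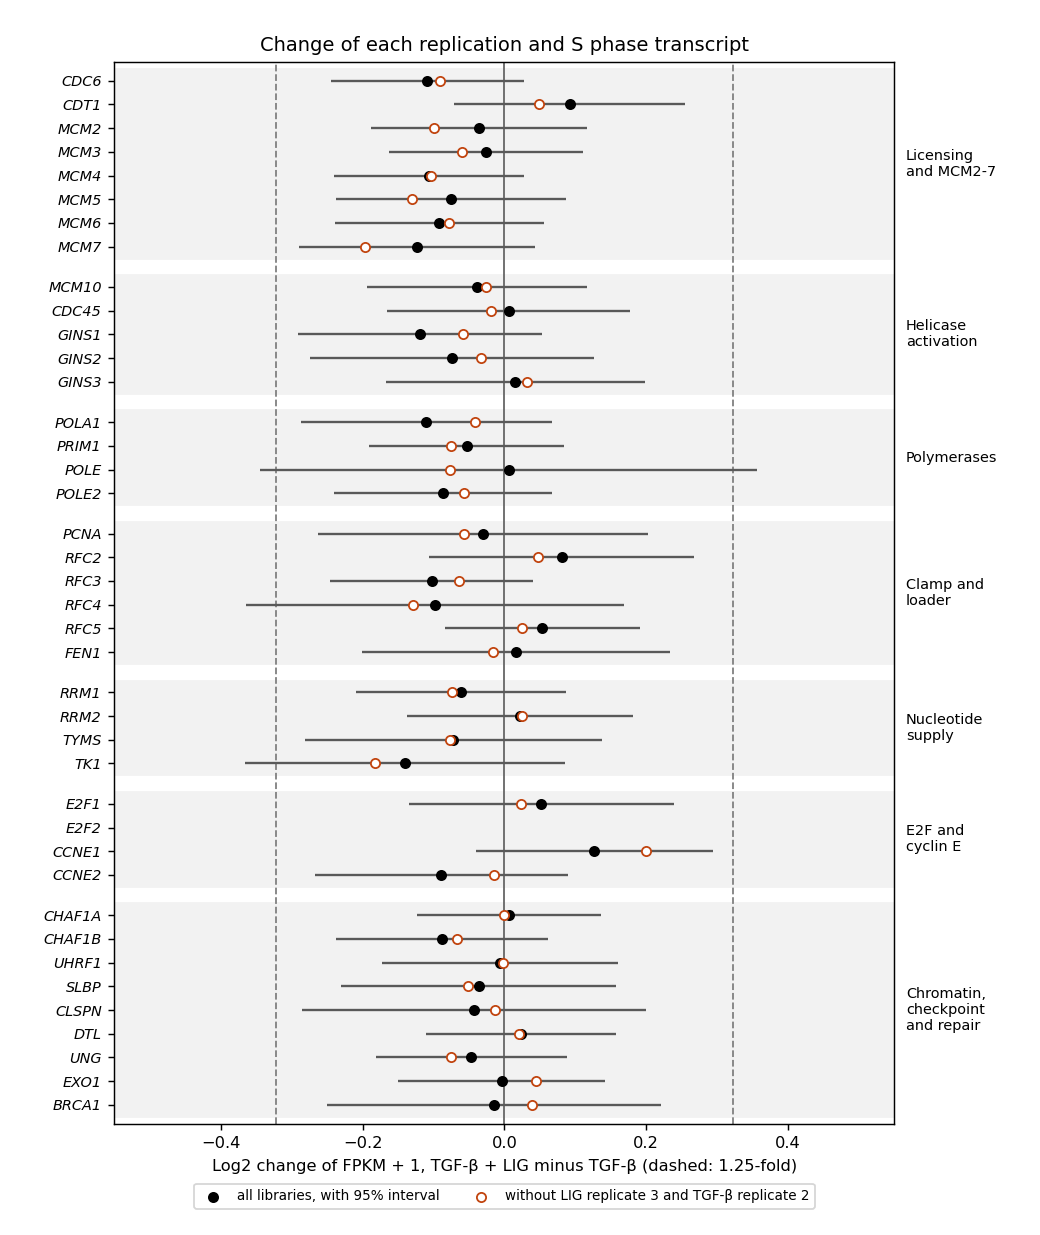
Log2 change of FPKM + 1 (TGF-β with LIG minus TGF-β alone) of the 39 tested members by role. Filled points and bars are the estimates from all libraries with their 95% intervals, open points the estimates without LIG replicate 3 and TGF-β replicate 2, and dashed lines 1.25-fold. Every interval crosses 0, and those of POLE, RFC4 and TK1 reach past a dashed line; E2F2, below the level tested, has no point.

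The genes of origin licensing were all expressed, and 7 of 8 were slightly lower with LIG in the estimate, with a median log2 change of -0.08. CDC6, the ATPase that recruits the helicase to origins (chromosome 17, 40287633 to 40304657, GRCh38), was at 29.6, 29.2 and 30.2 FPKM with LIG (replicates 1, 2 and 3, the order used throughout) and at 31.2, 33.4 and 31.6 FPKM with TGF-β alone. All LIG libraries lay below all TGF-β libraries, yet the log2 change of -0.11 ± 0.06 (SE) did not pass (limma adjusted p = 0.726). Its partner CDT1 (chromosome 16, 88803213 to 88809258) was at 7.72, 7.97 and 8.94 FPKM with LIG and at 7.57, 7.79 and 7.53 FPKM with TGF-β alone. These groups overlapped, with the highest value in LIG replicate 3 (log2 change 0.09 ± 0.07, limma adjusted p = 0.834). The ratio of CDC6 to CDT1 within a library ran between 3.37 and 3.84 with LIG and between 4.11 and 4.29 with TGF-β alone. With 3 libraries a group the smallest two-sided p of an exact permutation test is 0.1, so this ratio, chosen after the values were seen, is a description only.

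The 6 subunits of the MCM2-7 ring differed more from each other than between the groups. MCM4 and MCM7 were the highest at means of 82.9 and 79.3 FPKM with LIG, and MCM5 the lowest at 20.2 FPKM, although the ring holds equal numbers of each. The highest subunit stood between 3.93 and 4.33 times the lowest in every library. MCM4 (chromosome 8, 47960185 to 47978160) was at 83.9, 82.7 and 82.0 FPKM with LIG and at 88.9, 88.7 and 90.2 FPKM with TGF-β alone. Its groups did not overlap, and replicates lay close together, at 82.9 ± 0.96 FPKM with LIG and 89.3 ± 0.82 FPKM with TGF-β alone (SD, n = 3 each; log2 change -0.11 ± 0.06 SE, limma adjusted p = 0.726). MCM7 (chromosome 7, 100092728 to 100101940) was at 75.4, 76.9 and 85.6 FPKM with LIG and at 85.0, 84.3 and 89.8 FPKM with TGF-β alone. LIG replicate 3 alone reached the TGF-β range (log2 change -0.12 ± 0.07, limma adjusted p = 0.753). MCM6 (chromosome 2, 135839626 to 135876426) was at 23.0, 21.1 and 22.7 FPKM with LIG and at 23.4, 24.8 and 23.3 FPKM with TGF-β alone, a gap narrower than the spread within either group. MCM2 (chromosome 3, 127598223 to 127622436) was at 30.2, 31.3 and 31.7 FPKM with LIG and at 33.3, 29.7 and 32.7 FPKM with TGF-β alone. The MCM2 groups overlapped, with the lowest of the 6 values in TGF-β replicate 2. MCM3 and MCM5 had log2 changes of -0.03 and -0.08.

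**Figure D2:**
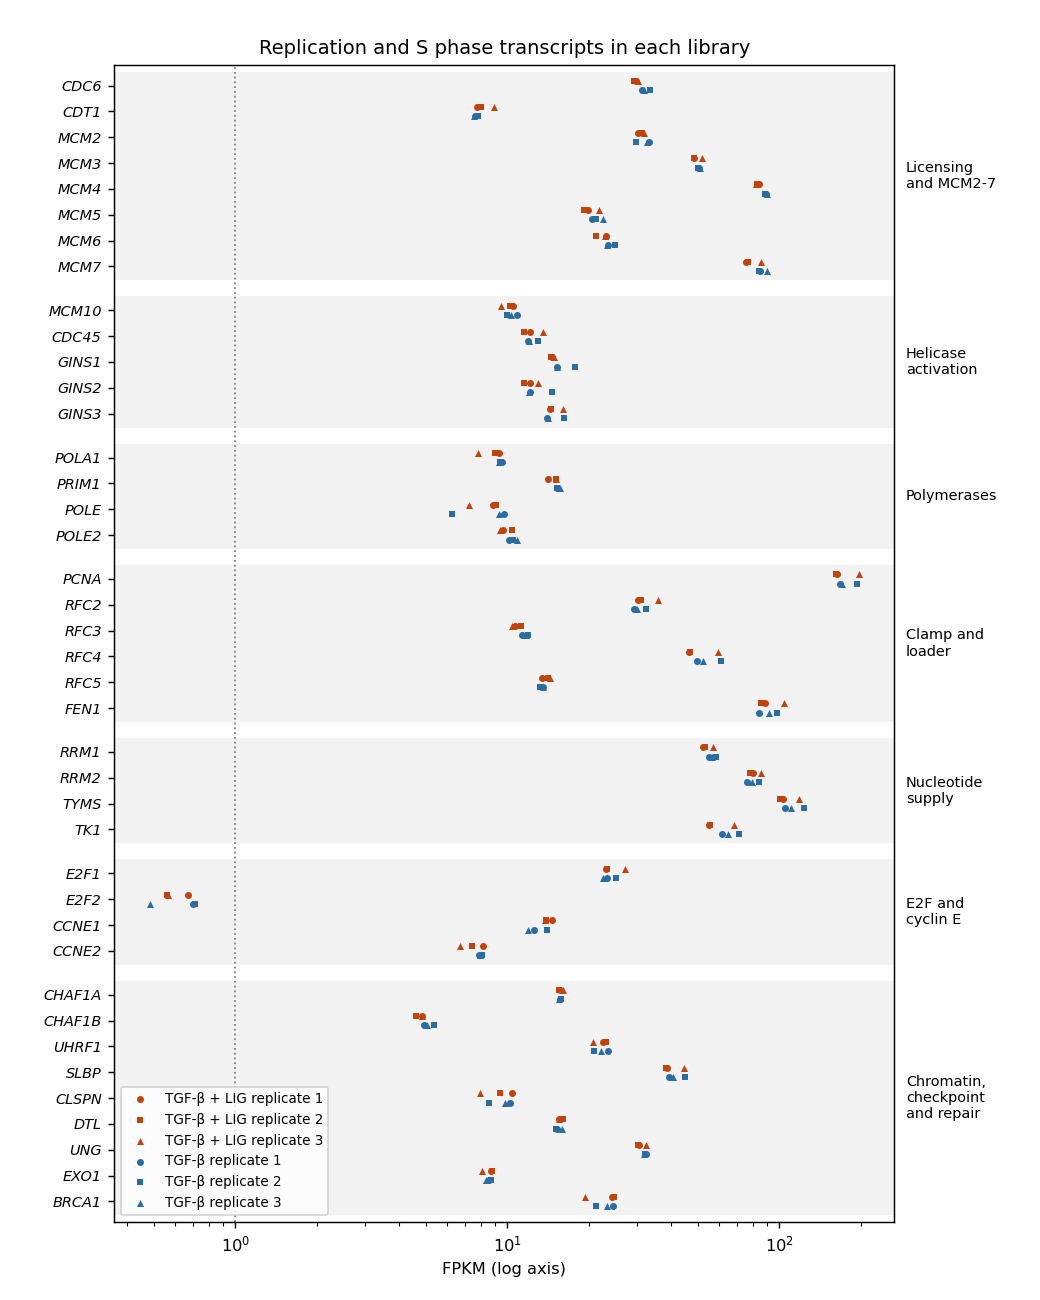
FPKM (log axis) of the 40 members in each of the 6 libraries, by role. TGF-β with LIG is drawn above TGF-β alone for each gene, with 1 marker shape per replicate number, and the dotted line marks 1 FPKM. Levels run between about 0.5 FPKM for E2F2 and 196 FPKM for PCNA, and the spread between genes is far wider than that between the groups.

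The genes that turn the loaded helicase into a moving one stood between 9.46 and 17.7 FPKM in every library. GINS1, a subunit of the GINS complex (chromosome 20, 25407727 to 25452628), was at 14.6, 14.5 and 14.8 FPKM with LIG and at 15.2, 17.7 and 15.2 FPKM with TGF-β alone. The groups did not overlap, and TGF-β replicate 2 was the highest (log2 change -0.12 ± 0.07, limma adjusted p = 0.765). Without LIG replicate 3 and TGF-β replicate 2 the change was -0.06. Its partners GINS2 and GINS3 had log2 changes of -0.07 and 0.02, and the 3 GINS transcripts stayed within 1.26-fold of each other in every library. CDC45, the other helicase partner, had a log2 change of 0.01, and MCM10, which helps the helicase start, one of -0.04.

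Of the polymerase genes, POLA1, the catalytic subunit of polymerase α, and PRIM1, the catalytic primase subunit, did not overlap between the groups. POLA1 was between 7.77 and 9.33 FPKM with LIG and between 9.34 and 9.58 FPKM with TGF-β alone (log2 change -0.11, limma adjusted p = 0.810), and PRIM1 had a log2 change of -0.05. POLE, the catalytic subunit of the leading-strand polymerase (chromosome 12, 132623753 to 132687365), was at 8.88, 9.04 and 7.20 FPKM with LIG and at 9.71, 6.28 and 9.31 FPKM with TGF-β alone. Its lowest values were those of LIG replicate 3 and TGF-β replicate 2, which gave it the widest interval. POLE2, its accessory subunit, had a log2 change of -0.09 (limma adjusted p = 0.833).

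PCNA, the sliding clamp (chromosome 20, 5114953 to 5126626), was the highest member, above 97.7% of all genes tested by mean. It was at 163, 161 and 196 FPKM with LIG and at 167, 193 and 169.7 FPKM with TGF-β alone. In each group 1 library was high, LIG replicate 3 and TGF-β replicate 2, and the groups overlapped (log2 change -0.03 ± 0.10, limma adjusted p = 0.982). FEN1, the nuclease that trims Okazaki fragments (chromosome 11, 61792637 to 61797244), was at 88.1, 85.3 and 104 FPKM with LIG and at 84.3, 98.1 and 91.2 FPKM with TGF-β alone. The same libraries were the high ones. Among the small subunits of the clamp loader, RFC4 was the highest in FPKM and RFC3 the lowest, 4.16 to 5.72 times apart within a library. This order rests on the lengths used, 1365 bases for RFC4 and 11245 bases for RFC3. In fragments RFC3 was the higher, at 4592 to 5220 in a library, against 2448 to 3254 for RFC4. RFC3 (chromosome 13, 33818049 to 33966558) was at 10.7, 11.3 and 10.4 FPKM with LIG and at 11.3, 11.9 and 11.7 FPKM with TGF-β alone. The highest LIG value lay just under the lowest TGF-β value (log2 change -0.10 ± 0.06, limma adjusted p = 0.760). RFC2 and RFC5 lay above 0, with log2 changes of 0.08 and 0.05, and RFC4 lay below at -0.10 with a wide interval between -0.36 and 0.17.

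The nucleotide supply genes were among the highest members. RRM2, the cell cycle-regulated subunit of ribonucleotide reductase (chromosome 2, 10120698 to 10131419), was at 79.9, 78.2 and 85.2 FPKM with LIG and at 76.0, 84.1 and 79.4 FPKM with TGF-β alone. The groups overlapped (log2 change 0.02 ± 0.07, limma adjusted p = 0.980). RRM1, the large subunit, had a log2 change of -0.06, and the ratio of RRM2 to RRM1 ran between 1.47 and 1.52 with LIG and between 1.38 and 1.44 with TGF-β alone. Ratios of CHAF1A to CHAF1B and of CCNE1 to CCNE2 did not overlap between the groups either, while that of POLE2 to POLE did. These ratios are descriptions only, with no share over other pairs to set them against. TYMS, thymidylate synthase (chromosome 18, 657604 to 673578), was at 103, 100.4 and 118 FPKM with LIG and at 105, 123 and 109.9 FPKM with TGF-β alone. LIG replicate 3 and TGF-β replicate 2 were again the highest of their groups (log2 change -0.07 ± 0.09, limma adjusted p = 0.933). TK1, the cytosolic thymidine kinase (chromosome 17, 78174075 to 78187233), was at 55.0, 55.7 and 68.1 FPKM with LIG and at 61.4, 70.9 and 64.6 FPKM with TGF-β alone. LIG replicates 1 and 2 lay below the TGF-β range and LIG replicate 3 inside it. The log2 change of -0.14 ± 0.10 was the lowest of the members (limma adjusted p = 0.810).

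The regulators of S phase entry showed the highest estimate. CCNE1, cyclin E1 (chromosome 19, 29811898 to 29824308), was at 14.6, 13.8 and 13.8 FPKM with LIG and at 12.5, 13.9 and 11.9 FPKM with TGF-β alone. TGF-β replicate 2 lay within the LIG range, and the other 2 TGF-β libraries lay below it (log2 change 0.13 ± 0.07, limma adjusted p = 0.745). Without LIG replicate 3 and TGF-β replicate 2 the change was 0.20 (limma adjusted p = 0.0643). CCNE2, cyclin E2 (chromosome 8, 94879770 to 94896678), was at 8.16, 7.43 and 6.69 FPKM with LIG and at 7.85, 8.06 and 7.91 FPKM with TGF-β alone. LIG replicate 1 was the highest and LIG replicate 3 the lowest of the 6 (log2 change -0.09 ± 0.08, limma adjusted p = 0.871). E2F1, an activating E2F (chromosome 20, 33675683 to 33686404), was at 23.1, 23.3 and 27.1 FPKM with LIG and at 23.2, 25.1 and 22.5 FPKM with TGF-β alone. Its groups overlapped (log2 change 0.05 ± 0.08, limma adjusted p = 0.955). E2F2, a related activator, was at 0.672, 0.558 and 0.563 FPKM with LIG and at 0.699, 0.713 and 0.485 FPKM with TGF-β alone. These values rest on 112 to 166 fragments and lay below the level tested.

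The 9 genes of chromatin assembly, histone mRNA, checkpoint and repair had a median log2 change of -0.01. CHAF1A, a subunit of the histone chaperone CAF-1, was the steadiest member, between 15.5 and 16.0 FPKM over all libraries (log2 change 0.01). CHAF1B, its partner, was between 4.59 and 4.86 FPKM with LIG and between 4.95 and 5.39 FPKM with TGF-β alone (log2 change -0.09 ± 0.06, limma adjusted p = 0.820). UHRF1, which guides maintenance methylation, had a change of -0.01, and SLBP, which binds histone mRNA, one of -0.04. DTL, which targets CDT1 for destruction, was at 0.02, UNG, the uracil glycosylase, at -0.05, and the exonuclease EXO1 at 0.00 on the same scale. CLSPN, the checkpoint mediator claspin, and the repair gene BRCA1 had changes of -0.04 and -0.01, with their lowest value of the 6 in LIG replicate 3.

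The groups did not overlap in 8 of the 39 members (20.5%), against 15.8% of all genes tested. All 8 were lower with LIG (CDC6, MCM4, MCM6, GINS1, POLA1, PRIM1, RFC3 and CHAF1B), which held for 6.73% of all genes, and their mean FPKM differed by between -8.64% and -3.83%. None of these differences passed the test over all genes.

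The spread between replicates of the members followed gene length. The lengths are those behind the FPKM, recovered from the table, and run between 905 bases for SLBP and 11245 bases for RFC3. In LIG replicate 3, against LIG replicates 1 and 2, the 8 members under 2000 bases had a median difference of 0.22 on the log2(FPKM + 1) scale. The 24 members of 2000 to 5000 bases had a median of 0.07, and the 8 of 5000 bases or more had a median of -0.18. In TGF-β replicate 2, against TGF-β replicates 1 and 3, the same classes had medians of 0.17, 0.03 and -0.07. RFC4 (1365 bases) was 0.34 higher in LIG replicate 3 and 0.25 higher in TGF-β replicate 2, the highest of the members in both. POLE (8849 bases) was at -0.28 and -0.53, the lowest of the members in TGF-β replicate 2, and BRCA1 (7154 bases) was the lowest in LIG replicate 3, at -0.32.

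All genes tested showed the same order. Their medians were 0.28, 0.09 and -0.14 in LIG replicate 3 and 0.18, 0.06 and -0.07 in TGF-β replicate 2, from the shortest class to the longest. Spearman's rho of length and difference was -0.77 and -0.61 across the 40 members, and -0.71 and -0.58 across all genes, for LIG replicate 3 and TGF-β replicate 2. Genes of 1 library are not independent, so these coefficients are descriptions. In 31 of the 39 tested members, the difference of LIG replicate 3 from its own group was larger in size than the change between the groups. Of the 40 members, 35 had their highest or lowest value of the 6 in LIG replicate 3 or TGF-β replicate 2. Neither count was taken over all genes, so both are descriptions. A difference of 1 library from 2 varies more than one between means of 3, and any 2 of 6 libraries hold many extreme values. The cause of the length pattern was not tested.

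**Figure D3:**
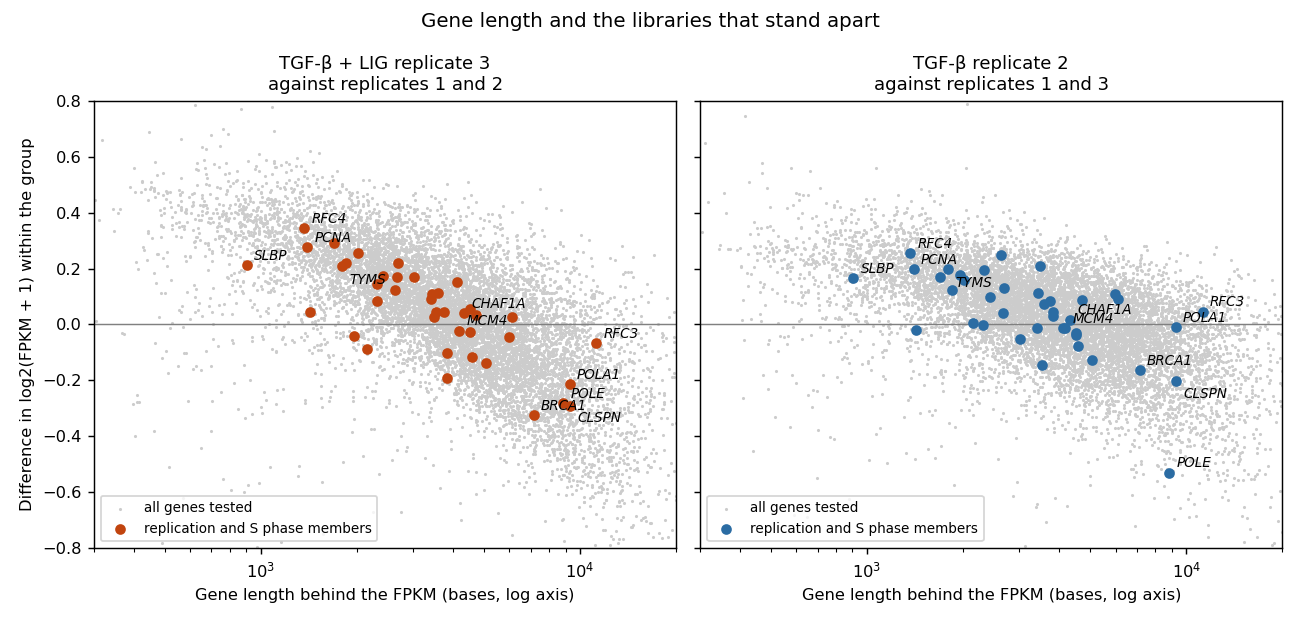
Difference in log2(FPKM + 1) of LIG replicate 3 from the mean of LIG replicates 1 and 2 (left), and of TGF-β replicate 2 from the mean of TGF-β replicates 1 and 3 (right), against the gene length behind the FPKM (bases, log axis). Coloured points are the 40 members and grey points all genes tested, some of which lie outside the plotted range. Short members such as RFC4 and PCNA lie above 0 and long ones such as POLE and BRCA1 below, with exceptions. Of the 8 members under 2000 bases, 7 lie above 0 in each panel. Of the 8 of 5000 bases or more, 1 lies above 0 on the left and 3 on the right.

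Without LIG replicate 3 and TGF-β replicate 2, 2 members passed, MCM7 (log2 change -0.20, limma adjusted p = 0.0244) and TK1 (log2 change -0.18, limma adjusted p = 0.0322), both lower with LIG. They are 5.13% of the members tested, against 4.65% of all genes in that fit, with 2.69% lower and 1.95% higher. These p-values rest on the 4 libraries most alike. With weights for library quality, 7 of 39 members passed (17.9%), against 17.7% of all genes. The weights were 1.27, 3.42 and 0.138 for LIG replicates 1, 2 and 3. For TGF-β replicates 1, 2 and 3 they were 0.969, 0.285 and 6.03. Calls in that fit thus lean most on LIG replicate 2 and TGF-β replicate 3. Lower with LIG in that fit were CDC6, MCM4, MCM5, MCM7, RFC4 and TK1 (15.4% of the members, against 7.24% of all genes), and CCNE1 was higher (2.56%, against 10.4%). In both fits the share of members called in either direction was near that of all genes.

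Genes of replication outside the set were not called either. Of 49 further replication genes, such as the origin recognition complex, the polymerase δ subunits and replication protein A, 0 rose or fell and the median log2 change was -0.01 (limma). At an unadjusted p under 0.05, 3 passed, against 8.41% of all genes. With library quality weights 7 were called, 5 higher and 2 lower, against 17.7% of all genes. LIG1, the DNA ligase that joins Okazaki fragments, was at 15.9, 15.5 and 16.5 FPKM with LIG and at 17.7, 17.6 and 18.8 FPKM with TGF-β alone (log2 change -0.17 ± 0.06, limma adjusted p = 0.472, and 0.0408 without LIG replicate 3 and TGF-β replicate 2). RPA2, a subunit of the single-strand binding complex, was higher in each LIG library, at a mean of 30.6 FPKM, against 27.0 FPKM with TGF-β alone (limma adjusted p = 0.536), and CDC7, the kinase that fires origins, lower in each, at 12.1 FPKM, against 13.5 FPKM with TGF-β alone (limma adjusted p = 0.574). Of 25 G2 and mitosis genes, 0 passed either, with a median of 0.04. Without LIG replicate 3 and TGF-β replicate 2, 1 of the 25 was called, PTTG1 (log2 change 0.15, limma adjusted p = 0.0408), against 4.65% of all genes. With library quality weights 4 of the 25 were, 3 higher and 1 lower, against 17.7% of all genes. CCNF, PLK1 and KIF20A, which had the smallest p among them, had log2 changes of 0.16, 0.12 and -0.11.

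**Figure D4:**
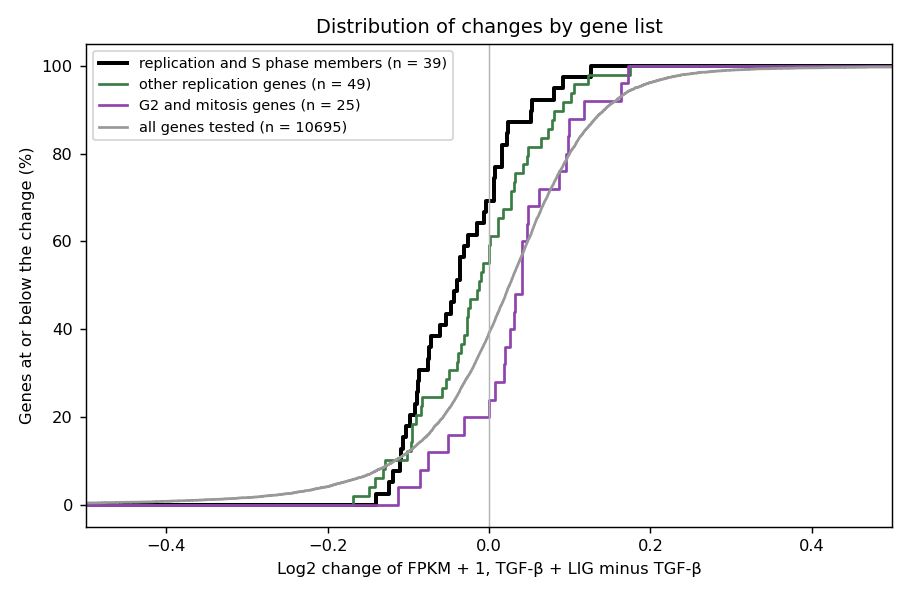
Cumulative share of genes (%) by log2 change of FPKM + 1 (TGF-β with LIG minus TGF-β alone), for the 39 tested members, 49 other replication genes, 25 G2 and mitosis genes and all 10695 genes tested; changes beyond 0.5 are not drawn. The members lie between -0.14 and 0.13, with a median of -0.04, against 0.03 for all genes.

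Of 22 tested genes of other E2F and DP factors, pocket proteins, CDC25A and the cyclins, kinases and inhibitors of G1 and S phase, 1 changed. Of all genes, 0.692% changed. CDKN2B, which encodes the CDK4 and CDK6 inhibitor p15, fell to 3.78, 4.29 and 4.09 FPKM with LIG, against 6.94, 6.52 and 5.95 FPKM with TGF-β alone. The groups stood well apart (log2 change -0.56 ± 0.08, limma adjusted p = 0.0204). The call was lost without LIG replicate 1 (adjusted p = 0.103), LIG replicate 2 (0.0704), TGF-β replicate 1 (0.135), TGF-β replicate 2 (0.113) or TGF-β replicate 3 (0.0744), with no filter on low values (0.111) and with the replicate block (0.105). CDKN1A, the inhibitor p21, was at 17.4, 16.1 and 18.2 FPKM with LIG and at 12.6, 14.7 and 13.7 FPKM with TGF-β alone, and CCND1, cyclin D1, at a mean of 338 FPKM with LIG and 287 FPKM with TGF-β alone. Neither passed (limma adjusted p = 0.213 and 0.354). Without LIG replicate 3 and TGF-β replicate 2, 4 of the 22 were called, CDKN2B lower and CDKN1A, CCND1 and E2F7 higher (adjusted p = 0.00773, 0.0171, 0.00593 and 0.00636). E2F7, a repressive E2F, had a log2 change of 0.24 in that fit and of 0.12 over all libraries (limma adjusted p = 0.907). With library quality weights 4 were also called, 3 higher and 1 lower. Of all genes, 4.65% were called without those libraries and 17.7% with the weights.

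Some of these values carry limits of counting. Exons of 11 members overlap exons of another gene of the table. MCM7 with AP4M1, RFC4 with EIF4A2 and TYMS with ENOSF1 are among them, each on opposite strands. Whether counting used strand is not given in the sources used here. PRIM1 with NACA, FEN1 with FADS2 and CHAF1B with MORC3 overlap on the same strand, which counting by strand would not separate. Pseudogenes are named for 7 members, PCNA, RRM2 and TYMS among them, with which reads could be shared. Tested members held between 775 (PRIM1) and 14587 (MCM4) fragments in a library, and their median coefficient of variation between replicates was 5.74% with LIG and 4.41% with TGF-β alone.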

How the data were processed

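Libraries were built from polyadenylated RNA extracted with TRIzol, per the labels' protocols. The authors deposited FPKM values, 1 column per library. Fastp, DESeq2, HISAT2 2.1.0 and the build GRCh38.p13 are named without roles, per the submitters' processing notes; the counting tool and annotation are not given in the sources used here.

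Genes with a mean of at least 1 FPKM (10695 of 22701) entered the test, limma 3.58.1 on log2(FPKM + 1) (group only, mean-variance trend, two-sided, Benjamini-Hochberg adjustment at 0.05), LIG minus TGF-β alone. Fold changes on this scale understate those of low genes. The FPKM steps gave whole fragments for all 22701 genes (100.0% of 114123 values above 0 within 0.01), and so gene lengths and depth. The fit was checked on simulated counts without libraries that stand apart, so the check does not cover that feature of these data. Positions are from GENCODE 29 and promoters from RefSeq (GRCh38.p14). Per-library values are printed for the 8 members with the smallest p, the 3 highest, 9 S phase genes set by name and, chosen after their values were seen, POLE and E2F2. From the other lists, the genes that passed and the 3 with the smallest p are named; TIMP1, PTTG1 and E2F7 were chosen after their values were seen. The members and lists were chosen with earlier results of these data known. Replicate numbers were not taken as pairs in the main fit. R 4.3.3, Python 3.11.15, pandas 2.3.3 and matplotlib 3.10.9 were used.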

Additional observations from a re-analysis of the deposited data

How the results depend on the processing

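The count of 0 members changed held under 17 of the 19 alternatives: other pseudocounts (0.1 and 0.5) and filters, TPM, median centring, quantile normalization, no trend, robust estimation, the replicate block, voom on recovered fragments and leaving out any 1 library (range 0 to 0). It was 2 without both libraries that stand apart and 7 with library quality weights. The count over all genes was 74; it was 497 and 1891 in those fits, 14 with no filter, 22 with the replicate block and between 11 (without TGF-β replicate 3) and 93 (without LIG replicate 3) when 1 library was left out. The median log2 change of the members stayed between -0.07 and -0.04. Whether replicate numbers pair the samples is not known. Deviations from the group means of LIG and TGF-β libraries of the same number correlated at 0.469, -0.574 and -0.337. The libraries that stand apart, LIG replicate 3 and TGF-β replicate 2, correlated at 0.675. Since they differ in number and weigh on all these values, the correlations cannot decide it. With 3 libraries a group, the 95% intervals of POLE, RFC4 and TK1 still allow changes beyond 1.25-fold.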
